A study of Mus musculus with 10 samples.

Results

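Axon injury and regeneration response genes were examined as a set of 10 genes, *Atf3*, *Jun*, *Sox11*, *Gap43*, *Sprr1a*, *Nrn1*, *Gal*, *Adcyap1*, *Ecel1* and *Gadd45a*. They were found by exact symbol, and all 10 were present among the 25232 genes of the authors' table. RNA of the spinal cord was sequenced from 5 *SOD1 G93A* and 5 wild type (WT) female mice at 90 days of age, with the strain given as C57BL/6 in the labels and the background as C57BL/6J in the methods. In *SOD1 G93A* mice, mutant human *SOD1*, a cause of familial amyotrophic lateral sclerosis, is present as a high-copy transgene beside the mouse's own *Sod1* gene. The controls were WT littermates. The methods name the lumbar region, whereas the labels name the spinal cord only. The value used for each gene was the base mean, which is the authors' mean over all 10 libraries of read counts divided by size factors. The other columns of that table hold the authors' own comparison of the genotypes and were not used. The levels below therefore describe both genotypes together, and whether any gene differed between *SOD1 G93A* and WT mice was not analysed here. With 1 value per gene, no likeness of pattern to other genes could be computed either.

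When an axon is cut, kinase signals travel back to the cell body and raise the expression of a set of genes. The set starts with transcription factors (*Atf3*, *Jun* and *Sox11*) and continues with proteins of the growing axon (*Gap43*, *Sprr1a* and *Nrn1*), secreted peptides (*Gal* and *Adcyap1*), a peptidase (*Ecel1*) and a stress protein (*Gadd45a*). The response is known from motor neurons and from sensory neurons of the dorsal root ganglia. In the spinal cord, motor neurons are a small part of the tissue, and a level in the whole cord is a sum over all cells. In bulk tissue, fewer cells of a type and less RNA per cell cannot be told apart.

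The depth of the libraries could be read from the lowest base means. Exactly 10 values were shared by at least 20 genes each and were not sums of smaller ones, as 1 read in 1 of the 10 libraries would give. These values lay between 0.0868 and 0.119 and held 716 genes in all. They correspond to size factors between 0.84 and 1.15, so the deepest library had 1.37 times the size factor of the shallowest. Which value belongs to which mouse was not inferred. Normalised counts over all genes summed to 22158933 per library on average. From the size factors, *Sprr1a* rested on between 384 and 527 reads over the 10 libraries and *Gap43* on between 23815 and 32645, the lowest and the highest of the 10 members. Errors given below are exact 95% Poisson intervals for the smaller of these read numbers. They cover counting error only, since the spread between mice was not analysed here.

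Levels were compared between genes per kilobase of merged exons, because longer transcripts collect more reads. *Gap43* had the highest level of the 10, with a base mean per kilobase of 1861 (95% counting interval 1838 to 1885). It was followed by *Nrn1* at 803, *Jun* at 369.5, *Ecel1* at 336, *Adcyap1* at 174.5, *Gadd45a* at 148, *Gal* at 136, *Sprr1a* at 56.8, *Atf3* at 39.6 and *Sox11* at 18.4. The highest level was 101 times the lowest, and *Gap43* was between 32.3 and 141 times as high as *Sox11* over the 4 lengths. Of the 9 neighbouring pairs in this order, only *Gadd45a* and *Gal* had overlapping counting intervals (141 to 154 and 127 to 145). The order also depended on the length used. *Gap43* was the highest and *Nrn1* the next with each of 4 lengths, whereas *Sox11* was the lowest with 3 of them and *Sprr1a* with the coding length. The neighbours *Jun* and *Ecel1*, *Ecel1* and *Adcyap1*, *Adcyap1* and *Gadd45a*, and *Sprr1a* and *Atf3* each changed places with at least 1 other length.

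**Figure D1:**
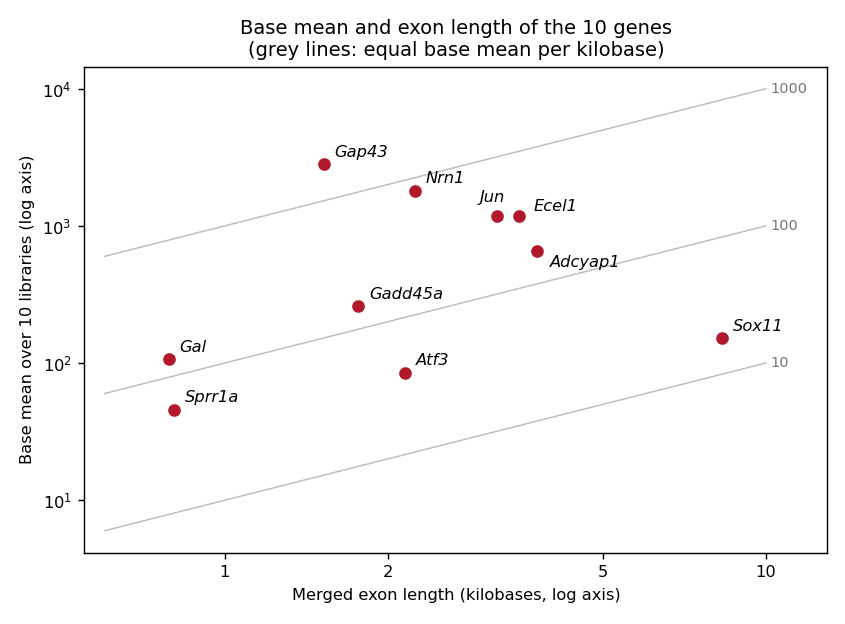
Base mean over 10 libraries against merged exon length in kilobases for the 10 injury response genes, both on log axes, with grey lines joining equal base means per kilobase. *Sox11*, with 8311 bases, lies closest to the lowest line, while *Gap43*, with 1523 bases, is the only gene above the highest line.

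Among all genes, the 10 members were spread widely. A base mean above 0 was listed for 20973 genes, and 20358 of these had a length, with a median of 63.5 per kilobase. *Gap43* exceeded 98% of them per kilobase, *Nrn1* 93.9%, *Jun* 84.9% and *Ecel1* 83.5%. *Adcyap1* exceeded 70.4%, *Gadd45a* 66.7% and *Gal* 64.9%, so that 7 of the 10 lay above the median. The other 3 were below it, *Sprr1a* at 48%, *Atf3* at 42.6% and *Sox11* at 33.8%. The median of the 10 was at percentile 68.6. By base mean without regard to length, whose median was 247, 6 of the 10 were above the median and the median percentile was 58.8. On that scale, *Gap43* had a base mean of 2835, *Nrn1* 1806, *Jun* 1178, *Ecel1* 1176, *Adcyap1* 659 and *Gadd45a* 260.3. The base means of the other 4 were 153 for *Sox11*, 107 for *Gal*, 85.2 for *Atf3* and 45.8 for *Sprr1a*. *Gal*, which has a short transcript of 788 bases, was thus above the median per kilobase but not by base mean.

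**Figure D2:**
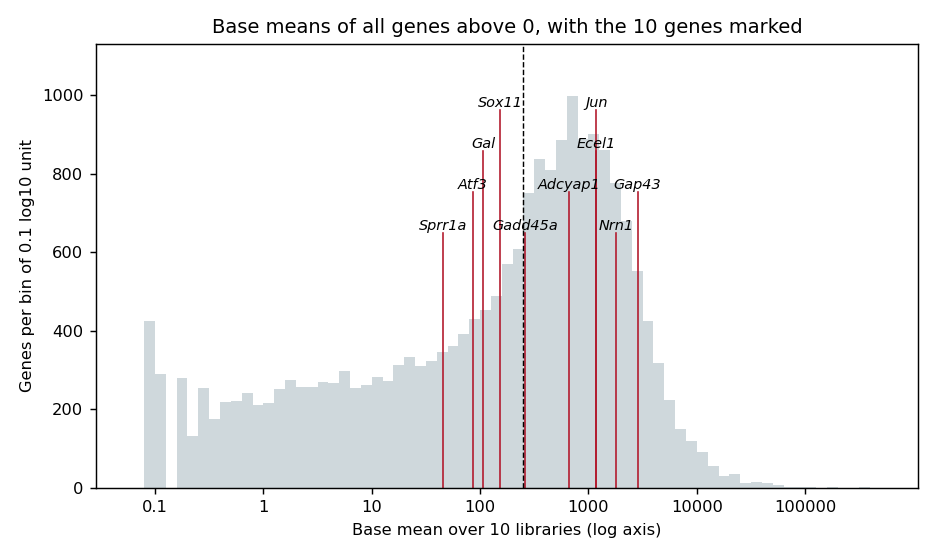
Number of genes by base mean over 10 libraries (log axis, bins of 0.1 log10 unit) for the 20973 genes above 0, with the 10 injury response genes as red lines and the median of 247 dashed. *Sprr1a*, *Atf3*, *Gal* and *Sox11* lie to the left of the median, and *Gap43* is the member farthest to the right.

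*Atf3* and *Jun* encode leucine zipper proteins that pair with each other and with Fos proteins on DNA, and *Jun* is activated by the kinases of the injury signal. *Jun* lies on chromosome 4 of GRCm38 from 95049034 to 95052222 on the minus strand, as 1 exon. *Atf3* lies on chromosome 1 from 191170296 to 191218039 on the minus strand. Per kilobase, *Jun* was 9.34 times as high as *Atf3*, and the ratio was at least 6.37 with each of the 4 lengths. Within the family, *Jund*, a close relative present in most resting cells, had the highest level at 1266 per kilobase, 3.43 times that of *Jun* and at least 1.755 times with each length. *Jun* exceeded *Jdp2*, an inhibitory dimer partner (216 per kilobase), *Fos* (156) and *Junb* (113), the immediate early genes. Over the 4 lengths, the smallest ratios of *Jun* to *Jdp2*, *Fos* and *Junb* were 1.04, 1.1 and 1.63. *Atf3* was above *Fosb* (8.11 per kilobase) and *Batf* (3.28), a gene of immune cells, by 4.88 and 12.1 times, and by at least 3.145 and 8.886 times with each length. *Fosl1* (48.2 per kilobase) and *Fosl2* (23.4) lay on either side of *Atf3*, and each changed side with another length. 

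*Sox11* encodes a transcription factor of immature neurons that adult neurons express again after injury. It lies on chromosome 12 of GRCm38 from 27334264 to 27342574 on the minus strand, as a single exon of 8311 bases, the longest exon sequence of the 10 members. Its base mean of 153 corresponded to between 1284 and 1761 reads, but per kilobase its level was only 18.4 (17.4 to 19.4). Both relatives of the same Sox group were higher, *Sox4* at 57.6 and *Sox12* at 88.6 per kilobase. The ratios of *Sox4* and *Sox12* to *Sox11* were 3.13 and 4.82, and they were at least 1.62 and 3.25 with the other lengths.

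The promoter windows of the 2 leucine zipper genes and of *Sprr1a* are shown because ATF3 and JUN bind the motifs that were searched for and because *Sprr1a* was the only member with a match. The windows are RefSeq's (GRCm38.p6, 250 bases before to 50 after the start site), written 5′ to 3′ on the gene's strand, with AP-1 motifs in capitals. They lie at chr3:92485832-92486131 for *Sprr1a*, chr4:95052173-95052472 for *Jun* and chr1:191183284-191183583 for *Atf3*, all on the minus strand. The *Atf3* window lies inside the GENCODE span of that gene.
Sprr1a: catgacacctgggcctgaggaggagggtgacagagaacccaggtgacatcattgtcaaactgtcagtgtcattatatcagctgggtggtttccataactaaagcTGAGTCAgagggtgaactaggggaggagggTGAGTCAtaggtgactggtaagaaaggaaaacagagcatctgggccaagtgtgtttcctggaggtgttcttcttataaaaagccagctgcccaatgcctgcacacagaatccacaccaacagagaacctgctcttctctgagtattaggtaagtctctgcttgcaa
Jun: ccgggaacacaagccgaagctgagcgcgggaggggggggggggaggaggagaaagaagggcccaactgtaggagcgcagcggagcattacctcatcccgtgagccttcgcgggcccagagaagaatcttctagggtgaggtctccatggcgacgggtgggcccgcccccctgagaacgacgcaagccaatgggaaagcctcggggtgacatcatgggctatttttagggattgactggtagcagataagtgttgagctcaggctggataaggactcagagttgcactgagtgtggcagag
Atf3: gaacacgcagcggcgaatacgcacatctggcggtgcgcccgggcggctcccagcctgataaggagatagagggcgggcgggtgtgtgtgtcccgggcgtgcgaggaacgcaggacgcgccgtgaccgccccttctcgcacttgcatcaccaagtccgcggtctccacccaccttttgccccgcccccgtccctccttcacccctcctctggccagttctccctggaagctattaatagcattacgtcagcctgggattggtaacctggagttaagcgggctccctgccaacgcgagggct
Exact matches to the AP-1 motif TGANTCA and to the CRE motif TGACGTCA were searched on both strands, and neither motif contains the other. *Sprr1a* held the AP-1 motif at 2 places, each as TGAGTCA, from −146 to −140 and from −116 to −110 relative to the start site. Windows were given for 8 of the 10 members, and *Sprr1a* was the only one of the 8 with either motif. Of all 32851 windows, 7.81% held the AP-1 motif, 1.79% the CRE motif and 9.54% either. With 8 members, 1 with a match was near that last share. The absence of a match says only that these letters are not in the window. The GC content of the *Sprr1a* window was 48.7%, against 64.7% for *Atf3*, 60% for *Jun* and a median of 52.7% over all windows. The *Sprr1a* window held 0 CG dinucleotides, where that of *Atf3* held 27 and that of *Jun* 15.

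*Gap43*, *Sprr1a* and *Nrn1* encode proteins of the growing axon. *Gap43*, a membrane protein of growth cones and presynaptic terminals, lies on chromosome 16 of GRCm38 from 42248442 to 42340651 on the minus strand. Its level per kilobase was higher than that of *Marcks* (506), which encodes another membrane protein of the same kind, by 3.68 times, and by between 1.885 and 5.14 times over the 4 lengths. *Basp1*, the third gene of this kind, reached 1470 per kilobase, below *Gap43* (ratio 0.79), although with another length it was 1.05 times as high. *Nrn1* encodes neuritin, a small protein anchored to the membrane that promotes neurite growth. It lies on chromosome 13 from 36725361 to 36735131 on the minus strand. Its level of 803 per kilobase was 22.7 times that of its only relative in the lists, *Nrn1l* (35.5), and up to 84.6 times with another length. The exons of *Nrn1* share 501 bases (22.3%) with *Fars2*, a mitochondrial tRNA synthetase gene on the opposite strand with a base mean of 251. Libraries were stranded, but the strand setting of the counting is not given in the sources used here, so reads from the shared bases cannot be assigned.

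*Sprr1a* encodes a small proline-rich protein that is best known from the envelope of skin cells and appears in injured neurons. It lies on chromosome 3 of GRCm38 from 92483952 to 92485895 on the minus strand, beside other genes of its family. Its base mean of 45.8 was far above those of its relatives. Of the 15 related genes, 12 were listed at 0 (*Sprr2a1*, *Sprr2a2*, *Sprr2a3*, *Sprr2b*, *Sprr2d*, *Sprr2e*, *Sprr2f*, *Sprr2h*, *Sprr2i*, *Sprr2j-ps*, *Sprr3* and *Sprr4*). A count of 0 reads still allows an expected number of up to 3 reads in all, which is a base mean of at most 0.357. *Sprr1b* and *Sprr2g* each rested on 1 read, and *Sprr2k* on 2 reads in 2 libraries. None of the 707 windows of 100 bases along the *Sprr1a* transcript occurred in a transcript of another gene. Copies of *Sprr2* genes resemble each other, and only uniquely mapped reads were counted, so the zeros of that group are less certain. Markers of keratinocytes, the skin cells that use *Sprr1a*, were present unequally. Of the 5 markers analysed, *Krt5* of basal cells rested on 6 reads in 4 libraries and *Krt14* had 1.63 per kilobase. *Krt1* (14.7), *Krt10* (38.3) and *Lor* (52.2), which mark differentiating cells, were higher, and *Lor* was the nearest to the 56.8 per kilobase of *Sprr1a*. The base means of the 5 markers summed to 242. The part of such cells in the level of *Sprr1a* was not tested.

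*Gal* and *Adcyap1* encode the neuropeptides galanin and PACAP, which injured neurons make in larger amounts. *Gal* lies on chromosome 19 of GRCm38 from 3409915 to 3414544 on the minus strand, and *Adcyap1* on chromosome 17 from 93199017 to 93206537 on the plus strand. Per kilobase, *Adcyap1* at 174.5 (170 to 179) was above *Gal* at 136 (127 to 145), and the ratio of 1.28 rose to as much as 4.95 with other lengths. For galanin, the ligand gene was above all receptor genes, whereas for PACAP the receptor genes lay on both sides of the ligand gene. *Gal* was higher than each of its receptor genes, by 7.07 times for *Galr1* (19.2 per kilobase), 20.6 times for *Galr2* (6.61) and 27.5 times for *Galr3* (4.95). Over the 4 lengths, these ratios were at least 4.606, 16.16 and 27.45. The specific PACAP receptor gene *Adcyap1r1*, by contrast, had 1079 per kilobase, 6.19 times the level of *Adcyap1* and at least 3.61 times with each length. *Vipr2* (28.6 per kilobase) and *Vipr1* (5.43), whose receptors bind PACAP and the related peptide VIP, were lower than *Adcyap1r1* by 37.7 and 199 times. These ratios ran from 30.9 to 46.5 for *Vipr2* and from 142 to 199 for *Vipr1* over the 4 lengths. Both genes were also below *Adcyap1* at 174.5 per kilobase. Compared with the 10 other neuropeptide genes of a list of injury peptides, *Gal* and *Adcyap1* were both under the list's median of 188 per kilobase. With other lengths, *Adcyap1* had between 194.3 and 1255 per kilobase, but the list's median was not computed with them. By base mean, *Adcyap1* at 659 was above every gene of the list but *Vgf* at 3458, with *Calca* next at 605. *Gal* at 107 was below most of them. That list ran from *Nppb* at 2.88 to *Vgf* at 1163 per kilobase, and 5 of its 10 genes were above the median base mean of detected genes.

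*Ecel1* encodes a membrane peptidase of the neprilysin family that is also known as damage-induced neuronal endopeptidase. It lies on chromosome 1 of GRCm38 from 87147655 to 87156521 on the minus strand, with 20 merged exons. Its level of 336 per kilobase was above those of *Ece2* (8.29, 40.5 times), *Mme*, the neprilysin gene itself (35.7, 9.42 times), and *Mmel1* (37.6). With other lengths, the ratio to *Mme* fell as low as 2.76 and that to *Ece2* as low as 27.3. *Ece1*, an endothelin-converting enzyme found in many cell types, was close to it at 286 per kilobase, and the direction of that difference turned with another length. *Gadd45a* encodes a protein induced by DNA damage and growth arrest, and it lies on chromosome 6 from 67035096 to 67037457 on the minus strand. At 148 per kilobase (141 to 154), it could not be told from *Gadd45b* at 149, whose counting interval overlapped, although with another length it was up to 1.34 times as high. *Gadd45g* was higher at 332 per kilobase, 2.25 times *Gadd45a*, but only 1.14 times with another length. The exons of *Gadd45a* share 337 bases (19.1%) with the noncoding gene *E230016M11Rik* on the opposite strand, which had a base mean of 156. *Jun* shares 232 bases (7.28%) with the opposite gene *Junos*, which was not analysed here.

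**Figure D3:**
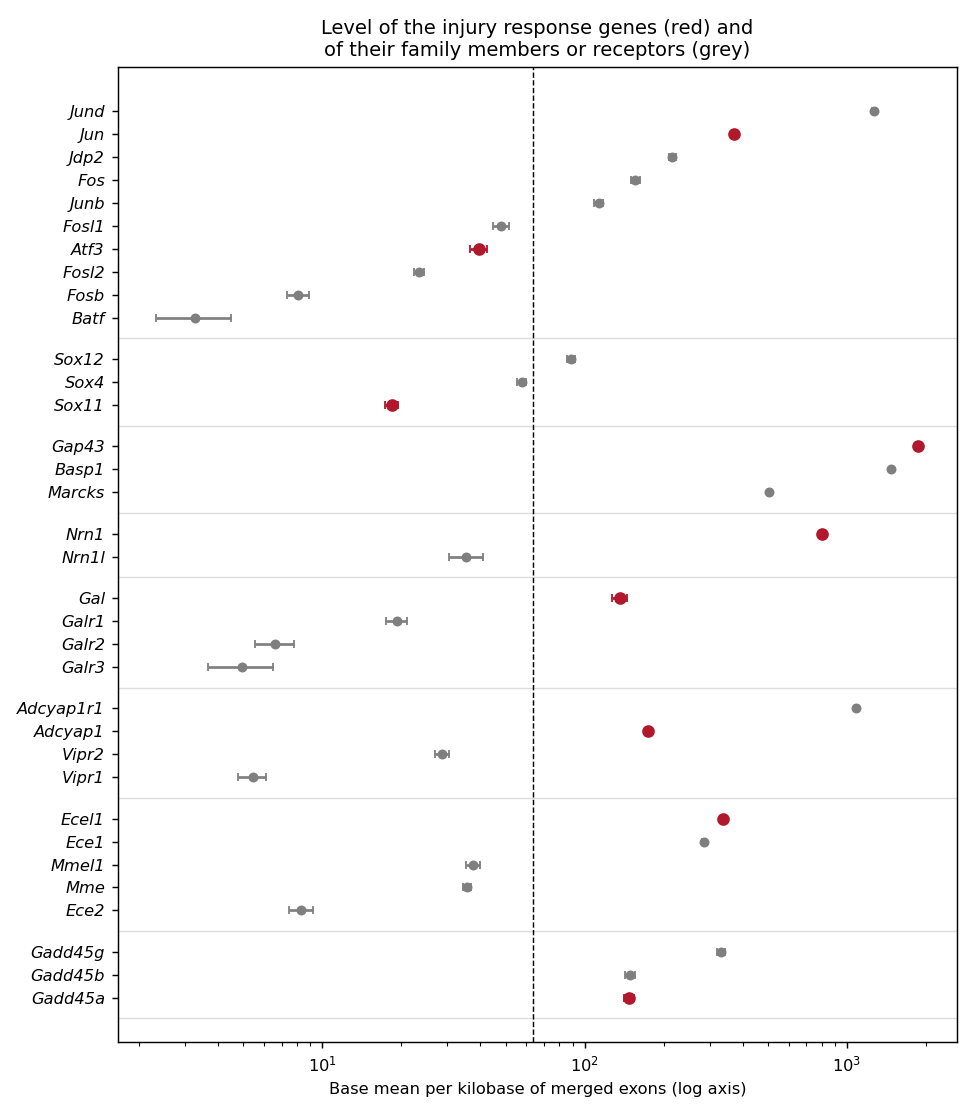
Base mean per kilobase of merged exons (log axis) of the injury response genes (red) and of their family members or receptors (grey), with 95% counting intervals as bars and the median of detected genes, 63.5, dashed. *Gal* lies above its 3 receptor genes, whereas *Adcyap1* lies below *Adcyap1r1* and above *Vipr2* and *Vipr1*. *Atf3* and *Sox11* lie to the left of the dashed line. *Sprr1a* is not drawn here because most of its relatives were at 0.

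The genes around this response, taken from 5 lists, were present at very unequal levels. All 12 genes of the injury signal (JNK pathway kinases and scaffolds, *Sarm1* and *Nmnat2*) were above the median base mean of detected genes, at a median percentile of 95.9. They ran from *Map3k13*, the gene of the kinase LZK, at 75.6 per kilobase to *Mapk8ip1*, a JNK scaffold gene, at 2165. Of 14 other transcription factors of regeneration, 9 were above the median, from *Runx1* at 4.31 to *Atf4*, a factor of the integrated stress response, at 1064 per kilobase. Their median of 123 per kilobase was below *Jun* at 369.5 and above *Atf3* at 39.6 and *Sox11* at 18.4. With the coding length, *Atf3* had 156.9 and *Sox11* 129.1 per kilobase, but the list's median was not computed with that length. Of the 18 effectors of the growth cone and cytoskeleton, 16 were above the median, from *Arg1* (2.39 per kilobase) to *Tubb3*, a neuronal tubulin gene (6802). The 7 cytokine genes fell into separate ranges by role. The receptor genes *Cntfr* (943 per kilobase), *Il6st* (365) and *Lifr* (206) were above the median, whereas the ligand genes were low, at 6.84 for *Lif*, 5.16 for *Ccl2*, 3.54 for *Cntf* and 0.707 for *Il6*.

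**Figure D4:**
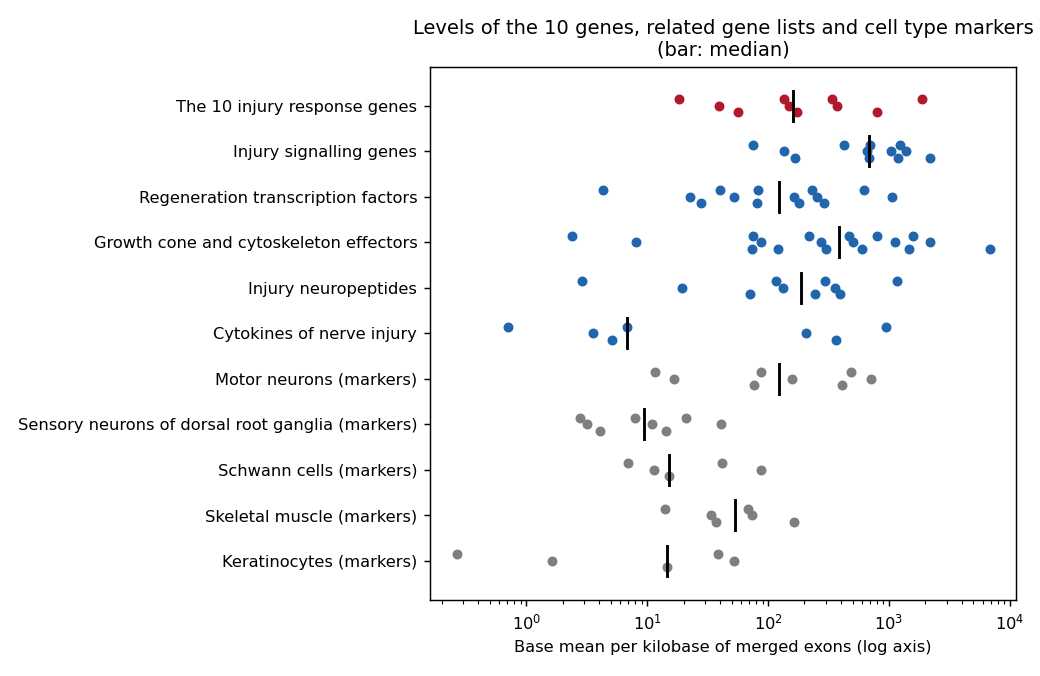
Base mean per kilobase of merged exons (log axis) of the 10 injury response genes (red), of 5 related lists (blue) and of cell type marker lists (grey), with 1 point per gene, a black bar at each median and vertical offsets only for legibility. The injury signalling genes overlap the 10 genes but have a higher median (687 against 161), and the markers of sensory neurons overlap them with a lower median (9.45).

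The labelled tissue was checked against markers. *Mbp*, *Gfap*, *Snap25*, *Aqp4* and *Rbfox3* all lay above the median, *Rbfox3* with the lowest level of 601 per kilobase. The 8 Hox genes used as markers of spinal level were present, from *Hoxc11* at 7.03 to *Hoxc10* at 256 per kilobase. Of 2 forebrain markers, *Emx1* had a base mean of 0.993, but *Neurod6* reached 78.9. All 8 markers of motor neurons were detected, with base means from 37.3 (*Mnx1*) to 2316 (*Slc5a7*, the choline transporter gene) and a sum of 6481. All 8 markers of dorsal root ganglion neurons were detected too, but 0 of them exceeded the median, with base means from 7.93 (*Prdm12*) to 113 (*P2rx3*) and a sum of 388. The 5 Schwann cell markers analysed ranged from 21.5 (*Pmp2*) to 484 (*Prx*, the periaxin gene of myelinating cells) and summed to 668. The skeletal muscle markers ranged from 77.5 (*Mylpf*) to 251 (*Acta1*) and summed to 838. No marker of these 4 lists was at 0. Per kilobase, the sensory neuron markers ran from 2.8 (*Mrgprd*) to 40.5 (*P2rx3*), a range that held *Atf3* and *Sox11*, while the other 8 genes were above it. *Atf3* was at the upper edge, and its counting interval (36.7 to 42.6) overlapped that of *P2rx3* (37.9 to 43.1). With the coding length, *Atf3* had 156.9 and *Sox11* 129.1 per kilobase, but the marker ranges were not computed with other lengths. The motor neuron markers ran from 11.5 (*Isl1*) to 712 (*Prph*), a range that held all members but *Gap43* and *Nrn1*. The share of each cell type in the level of the 10 genes was not tested.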

How the data were processed

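RNA-seq libraries of 5 WT and 5 SOD1 G93A mice were grouped by the sample titles. The authors filtered reads with Fastp, placed them on mm10 with HISAT2 (2.1.0 in the submitters' processing notes), quantified genes from reads with a unique position by featureCounts (2.0.2) and compared the genotypes with DESeq2. The annotation and the strand setting are not given in the sources used here. The deposited base mean, a signal made by the authors as the mean over libraries of counts divided by size factors, was used as it stands. The log2 fold changes, standard errors, Wald statistics, p-values and adjusted p-values of the table are the authors' own comparison and were left out, so no test between genotypes was made.

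The worth of 1 read was taken from base means shared by at least 20 genes. Lengths and positions are from GENCODE M21 (GRCm38, the build of mm10), in which 24310 of 25232 symbols matched 1 gene. Promoter windows are from RefSeq (GRCm38.p6), and motifs were matched exactly. The genes named are the 10 members, their fixed partners, the highest and lowest per kilobase of each list, and genes under a base mean of 1. Other genes of these lists were named after their values were seen. The members and lists were chosen with earlier results of these data known. Some marker genes are not reported here and were left out of the marker lists. Python 3.11.15, numpy 2.4.6, pandas 2.3.3, scipy 1.17.1 and matplotlib 3.10.9 were used.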

Additional observations from a re-analysis of the deposited data

How the results depend on the processing

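The number of members above the median was 6 among genes above 0, 5 where a minimum base mean of 1 or of 10 was set, 8 among all listed genes and 7 per kilobase. The median percentile of the 10 members moved from 58.8 to 53.3 and 45.7 with these minimums and to 65.7 among all listed genes. Of the 45 pairs of members, 43 kept their order per kilobase with the longest transcript, 43 with the mean transcript length and 40 with the coding length. The ratios between genes under other lengths were added after seeing the data. The same 10 values for 1 read were found when at least 10 or at least 50 genes had to share them, and 1 member held a motif with the upstream bases alone. No paired analysis was possible because the base mean joins all libraries of both genotypes in 1 value, and for the same reason no library could be left out. Genes listed at 0 had no reads, and the set limit of 3 expected reads in all gives them a base mean of at most 0.357.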
